A study of Rattus norvegicus with 4 samples.

Results

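miR-378a is a microRNA (miRNA) gene of rat whose hairpin gives 2 mature products, rno-miR-378a-3p and rno-miR-378a-5p, called miR-378a-3p and miR-378a-5p from here on. Both rows were taken by name from the deposited list of 765 known rat mature miRNAs, so that 2 of 765 miRNAs are described, and their values played no part in the choice. rno-miR-378a-3p was listed above 0 in all 4 libraries, with 49.3 to 275 RPM (normalised reads), and rno-miR-378a-5p was listed at 0 in all 4. The libraries came from H9c2 cells, a cardiomyoblast line from embryonic rat heart, and from exosomes, the small vesicles collected from the medium of these cells by ultracentrifugation. The groups were hypoxic exosomes, normoxic exosomes, hypoxic cells and normoxic cells, with 1 library each, after 48 h of culture. Hypoxia was produced in a chamber with an oxygen absorber, normoxic cells were kept in air with added CO2, and all cells grew in medium with serum from which exosomes had been depleted by ultracentrifugation. With 1 library per group no test between groups was possible, and no p-value is given.

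MiRNAs are short RNAs that guide Argonaute proteins to messenger RNAs, mostly through the seed, bases 2 to 8 from the 5′ end, and lower their translation and stability. The miR-378a hairpin lies in the gene Ppargc1b, in its first intron in mammals, and that gene encodes PGC-1β, a coactivator that drives mitochondrial biogenesis and fatty acid oxidation. In mice miR-378a is abundant in heart and skeletal muscle, and its 2 arms restrain oxidative metabolism through the targets Crat and Med13.

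In the RefSeq annotation of GRCr8 the gene Mir378 occupies chr18:57128922-57128986 on the minus strand. It lies within Ppargc1b (chr18:57029264-57131466, minus strand), 2480 bases downstream of the start of that gene. The mature sequences, also from RefSeq on GRCr8, are shown with the seed in capitals, because the seed sets which messenger RNAs each arm can address and differs between the arms.
miR-378a-3p: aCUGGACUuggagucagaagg
miR-378a-5p: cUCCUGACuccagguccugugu
Of the 765 listed miRNAs, 690 had a sequence in this reference, and none of them other than the arms themselves shared either seed. The nearest in sequence to miR-378a-3p was miR-3557-3p, 6 edits away. The second rat gene of the family, Mir378b on chromosome 5, had no mature sequence in the reference, and miR-378b was listed at 0 in every library. The study's own primer for miR-378a-3p in qRT-PCR, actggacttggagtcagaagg, carries the mature sequence over all 21 bases, written as DNA.

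The strand opposite to miR-378a also carries an annotated miRNA gene, Mir3557. Its arms are shown with the bases that are the exact reverse complement of a miR-378a arm in capitals, since a read counted without regard to strand would match both genes.
miR-3557-5p: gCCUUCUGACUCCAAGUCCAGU
miR-3557-3p: ACACAGGACCUGGAGUCAGGAG
miR-3557-5p (chr18:57128924-57128945, plus strand) pairs over 21 bases with miR-378a-3p (chr18:57128925-57128945), and miR-3557-3p pairs over 22 bases with miR-378a-5p (chr18:57128962-57128983). Whether the reads were counted by strand is not given in the sources used here. Whether any reads were shared between the antisense partners was not tested. The list gave the partners unlike values, and those of miR-3557 are given after those of miR-378a.

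The authors deposited RPM, the reads of a miRNA scaled to a fixed total in each library. Values above 0 came in whole steps, with 1 step size per library (within 0.1 of a step), and none was under 10 steps, so 1 step was taken as 1 read, and a miRNA listed at 0 had fewer than 10 reads. This is read from the values and stated in no source, and since none lies under 10 steps, steps of several reads each would look the same. Read numbers, counting intervals, bounds and the 10-read level all rest on it. Read this way, the RPM scale stands for 10404866 to 13285239 reads per library. Known miRNAs made up 0.881% of these reads in hypoxic exosomes and 0.115% in normoxic exosomes, and 26.9% in hypoxic cells and 51.0% in normoxic cells. A level can thus be read as RPM or as a share of its miRNA reads, and the scales differ most between exosomes and cells. Of 8 miRNAs that mark heart and skeletal muscle, 1 was listed in hypoxic exosomes, 2 in normoxic exosomes, 3 in hypoxic cells and 4 in normoxic cells. Among all 765 miRNAs these numbers were 144 and 74 in hypoxic and normoxic exosomes, and 331 and 338 in hypoxic and normoxic cells. The markers miR-133a-3p, miR-133b-3p, miR-208a-3p and miR-208b-3p were at 0 in every library. miR-1-3p had 10 reads in normoxic exosomes and 24 in normoxic cells, and was at 0 in both hypoxic libraries. miR-206-3p and miR-499-5p were at 0 in exosomes, with 20 and 169 reads in hypoxic cells and 34 and 277 reads in normoxic cells. miR-486 went the other way, with 223 and 42 reads in hypoxic and normoxic exosomes and 15 and 16 in hypoxic and normoxic cells.

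miR-378a-3p was a leading miRNA of the exosomes and stood lower, though above the middle, among the listed miRNAs of the cells. It had 275 RPM in hypoxic exosomes (95% exact Poisson interval 266 to 284, from 3395 reads). In normoxic exosomes it had 49.3 RPM (45.4 to 53.5, from 585 reads). Hypoxic cells had 118.5 RPM (113 to 124.5, from 1574 reads) and normoxic cells 188 RPM (180 to 197, from 1959 reads). On this scale the order was hypoxic exosomes, normoxic cells, hypoxic cells and normoxic exosomes, and each level differed from the next by more than the counting error. The closest neighbours were hypoxic exosomes and normoxic cells, with a ratio of 1.46 (1.38 to 1.54). These intervals cover counting error only, since reads made by PCR are not independent molecules, and the spread between cultures is unknown. Whether a library stands for 1 culture or several is not clear from the sources.

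As a share of the miRNA reads the order was another one. It was 3.12% for miR-378a-3p in hypoxic exosomes (95% exact binomial interval 3.02% to 3.22%) and 4.30% in normoxic exosomes (3.97% to 4.66%). In hypoxic cells it held 0.0440% (0.0418% to 0.0462%) and in normoxic cells 0.0369% (0.0353% to 0.0386%). Put per read, 1 miRNA read in 32.1 and 1 in 23.2 was miR-378a-3p in hypoxic and normoxic exosomes, and 1 in 2273 and 1 in 2711 in hypoxic and normoxic cells. Both exosome libraries stood far above both libraries of cells on this scale.

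**Figure D1:**
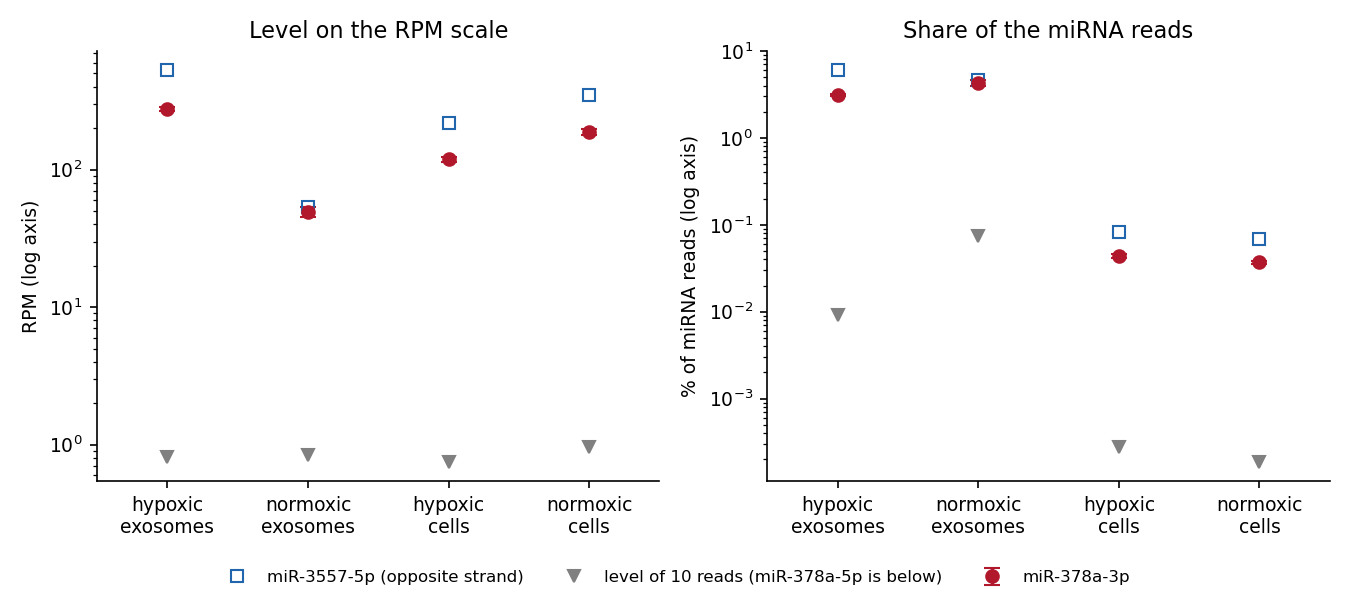
Level of miR-378a-3p in each library as RPM (left) and as a percentage of the miRNA reads (right), both on log axes, with 95% counting intervals as bars, beside its antisense partner miR-3557-5p (open squares) and the level of 10 reads (triangles), under which miR-378a-5p lay. On the right, miR-378a-3p is at 3.12% and 4.30% in exosomes and at 0.0440% and 0.0369% in cells, and on the left its lowest level, 49.3 RPM, is in normoxic exosomes.

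The rank of miR-378a-3p among the miRNAs of a library does not depend on the scale. By reads it was the 8th of 144 listed miRNAs in hypoxic exosomes and the 7th of 74 in normoxic exosomes. In cells it was the 93rd of 331 in hypoxia and the 97th of 338 in normoxia. Next to it in hypoxic exosomes stood miR-423-5p above (4243 reads) and miR-24-3p below (2904 reads), both apart from it by more than the counting error. In normoxic exosomes miR-3557-5p was next above with 631 reads, a difference within counting error (ratio 1.08, 0.962 to 1.21), and miR-21-5p next below with 339 reads. In cells its neighbours in normoxia, miR-582-3p (1989 reads) and miR-29b-3p (1916 reads), and miR-676 (1503 reads) below it in hypoxia did not differ from it beyond counting error. miR-1839-5p, above it in hypoxic cells with 1798 reads, did.

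Depth bears on how these ranks are read. Normoxic exosomes had 13598 miRNA reads, the fewest of the 4 libraries. At that total, the shares seen in hypoxic and normoxic cells would give 5.98 and 5.02 reads of miR-378a-3p, below the 10 reads at which miRNAs are listed, and the share seen in hypoxic exosomes would give 424 reads, against the 585 observed in normoxic exosomes.

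Exosomes were compared with cells of the same condition to see how far the vesicles carried miR-378a-3p relative to the cells they came from. Under hypoxia its level was 275 RPM in exosomes and 118.5 RPM in cells, a ratio of 2.32 (95% counting interval 2.18 to 2.46), and under normoxia it was 49.3 RPM in exosomes and 188 RPM in cells, a ratio of 0.262 (0.238 to 0.287), whereas the share of the miRNA reads was higher in exosomes in both conditions. Of 138 miRNAs listed in both hypoxic libraries, 8 (5.8%) had a ratio of RPM above 2 and 84.1% one below 0.5, and miR-378a-3p was the 6th highest, with a median ratio of all of 0.0493. Of 73 miRNAs listed in both normoxic libraries, 68 (93.2%) had a ratio below 0.5, miR-378a-3p among them. Its ratio of 0.262 was nonetheless the 9th highest of the 73, whose median was 0.00304. RPM is scaled to a fixed total in each library, so it gives neither the number of vesicles nor the miRNA per vesicle. From particle tracking, the study reported that more exosomes were secreted under hypoxia.

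Scaled to the miRNA total, the share of miR-378a-3p was 70.9 times as high in hypoxic exosomes as in hypoxic cells (95% counting interval 66.8 to 75.3) and 117 times as high in normoxic exosomes as in normoxic cells (106 to 128). On this scale 44.9% of miRNAs in the hypoxic pair and 42.5% in the normoxic pair had a ratio above 2, 31.9% and 30.1% had one below 0.5, and the medians were 1.51 and 1.355. The miRNAs above miR-378a-3p in the hypoxic pair were miR-486, miR-127-3p, miR-193b-3p, miR-122-5p and miR-3557-5p. Of these 5 only miR-3557-5p had more than 223 reads in exosomes. In the normoxic pair, 8 miRNAs were above it, and of these only miR-423-5p had more than 132 reads in exosomes. Where miRNAs under 50 reads in both libraries of a pair were left out, it was the 6th of 128 in hypoxia and the 4th of 68 in normoxia. With miR-21-5p, which alone held 48.5% of the miRNA reads in hypoxic cells and 54.9% in normoxic cells, left out of the totals, the ratios were 37.3 in hypoxia and 53.95 in normoxia.

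**Figure D2:**
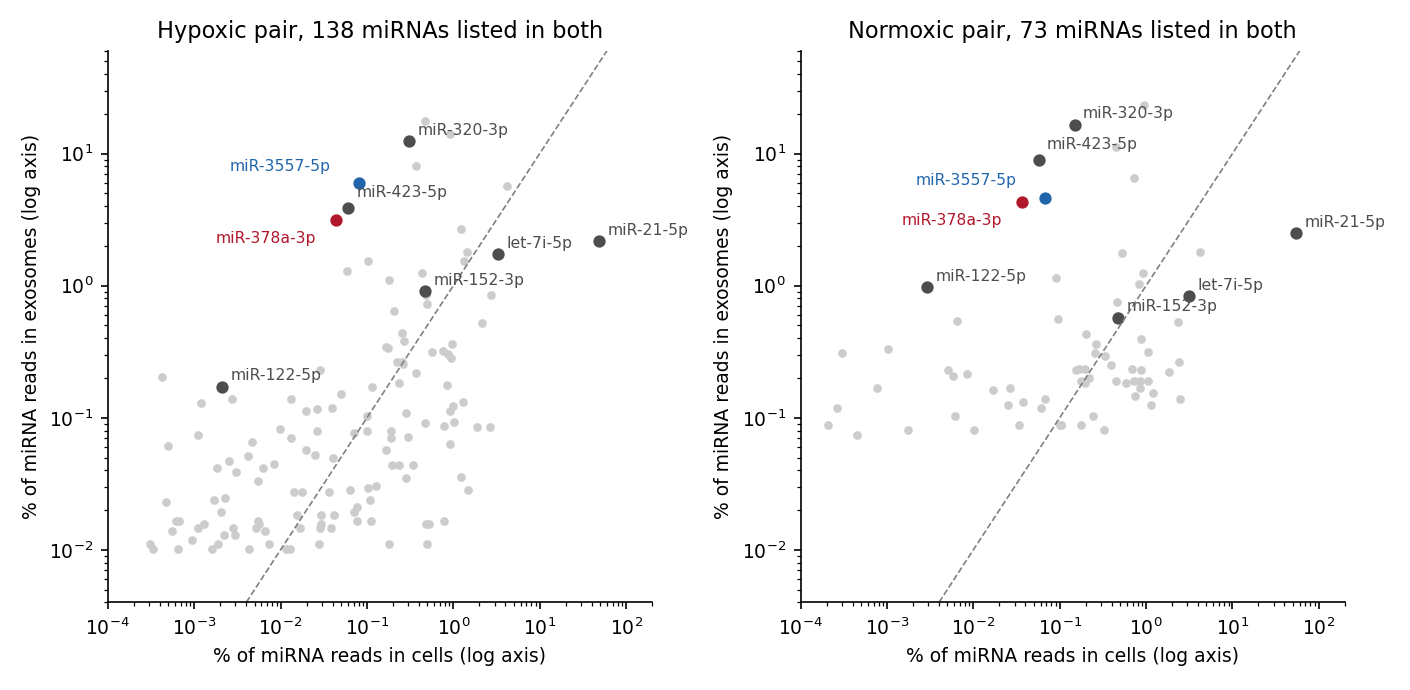
Percentage of the miRNA reads in exosomes (vertical) against cells (horizontal) for each miRNA listed in both, on log axes, for the hypoxic pair (138 miRNAs) and the normoxic pair (73 miRNAs), with the line of equal shares dashed. miR-378a-3p lies far above the line in both, at ratios of 70.9 and 117, close to miR-3557-5p and miR-423-5p, while miR-21-5p lies below it.

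Reads of other miRNAs in the same library give the same contrast without any scaling. miR-21-5p, an abundant miRNA that acts against apoptosis, was studied beside miR-378a-3p, as were let-7i-5p and miR-152-3p. miR-378a-3p had 1.43 times the reads of miR-21-5p in hypoxic exosomes (95% counting interval 1.36 to 1.51) and 1.73 times in normoxic exosomes (1.51 to 1.98). In cells miR-21-5p had 1103 times the reads of miR-378a-3p in hypoxia (1050 to 1160) and 1488 times in normoxia (1423 to 1556). The order of the pair was thus opposite in exosomes and cells, in both conditions.

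The same held against the other miRNAs of that group. miR-378a-3p had 1.80 times the reads of let-7i-5p in hypoxic exosomes and 5.18 times in normoxic exosomes, while let-7i-5p had 75.6 times its reads in hypoxic cells and 86.0 times in normoxic cells. Against miR-152-3p it had 3.42 and 7.5 times the reads in hypoxic and normoxic exosomes, and miR-152-3p had 10.7 and 12.8 times its reads in hypoxic and normoxic cells. As a share of the miRNA reads, the ratio of exosomes to cells of these 3 miRNAs lay between 0.0449 and 1.93 in hypoxia and between 0.0454 and 1.22 in normoxia, below that of miR-378a-3p.

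Hypoxia was compared with normoxia separately in exosomes and in cells. In exosomes miR-378a-3p had 275 RPM under hypoxia and 49.3 RPM under normoxia, a ratio of 5.57 (95% counting interval 5.105 to 6.10), but its share of the miRNA reads was lower under hypoxia, at 3.12% in hypoxic exosomes and 4.30% in normoxic exosomes (ratio 0.725, 0.664 to 0.793). It passed the study's threshold of a ratio above 2 on RPM, which 84.9% of the 73 miRNAs listed in both exosome libraries passed too. Its ratio was the 44th highest of the 73 and lay below their median of 6.73. The sum of all miRNAs in hypoxic exosomes was 7.69 times that in normoxic ones, so the level of miR-378a-3p moved by less than that sum. Scaled to the miRNA total, 13.7% of the 73 were above 2 and 28.8% below 0.5, against 84.9% and 1.37% on RPM, and miR-378a-3p was in neither group.

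In cells miR-378a-3p had 118.5 RPM under hypoxia and 188 RPM under normoxia, a ratio of 0.629 (0.5885 to 0.673), but 0.0440% of the miRNA reads in hypoxic cells and 0.0369% in normoxic cells (ratio 1.19, 1.115 to 1.275). On neither scale did it pass 2 or 0.5. Of 316 miRNAs listed in both libraries of cells, 27.8% had a ratio of RPM below 0.5 and 1.27% above 2, which became 3.8% and 11.7% when scaled to the miRNA total. By its ratio miR-378a-3p was the 147th of the 316, near the median of 0.612, and with that median set to 1 its own ratio was 1.03. The miRNA total was 0.528 of that in normoxic cells. In cells, then, miR-378a-3p stood close to the middle of the miRNAs in its ratio.

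**Figure D3:**
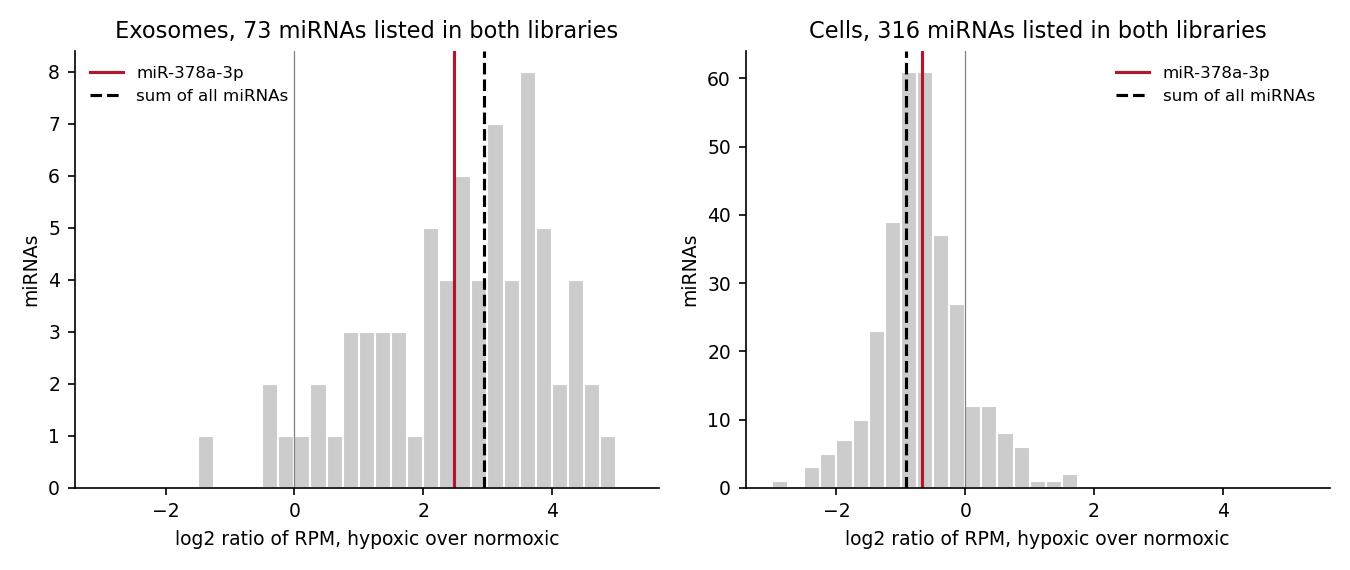
Number of miRNAs by their log2 ratio of RPM, hypoxic over normoxic, in exosomes (left, 73 miRNAs) and in cells (right, 316 miRNAs), with miR-378a-3p as a red line and the sum of all miRNAs as a dashed line. The log2 ratio of miR-378a-3p is 2.48 in exosomes, left of the sum at 2.94, and -0.67 in cells, right of the sum at -0.92.

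The opposite signs in exosomes and cells were shared with most miRNAs. On RPM, 63 of the 71 miRNAs listed in all 4 libraries (88.7%) were lower in hypoxic than in normoxic cells and higher in hypoxic than in normoxic exosomes, as was miR-378a-3p. The log2 ratio in exosomes exceeded that in cells by 3.15 for miR-378a-3p and by a median of 3.54 for the 71. Scaled to the miRNA total the difference for miR-378a-3p was -0.72, so that its sign depended on the scale.

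**Figure D4:**
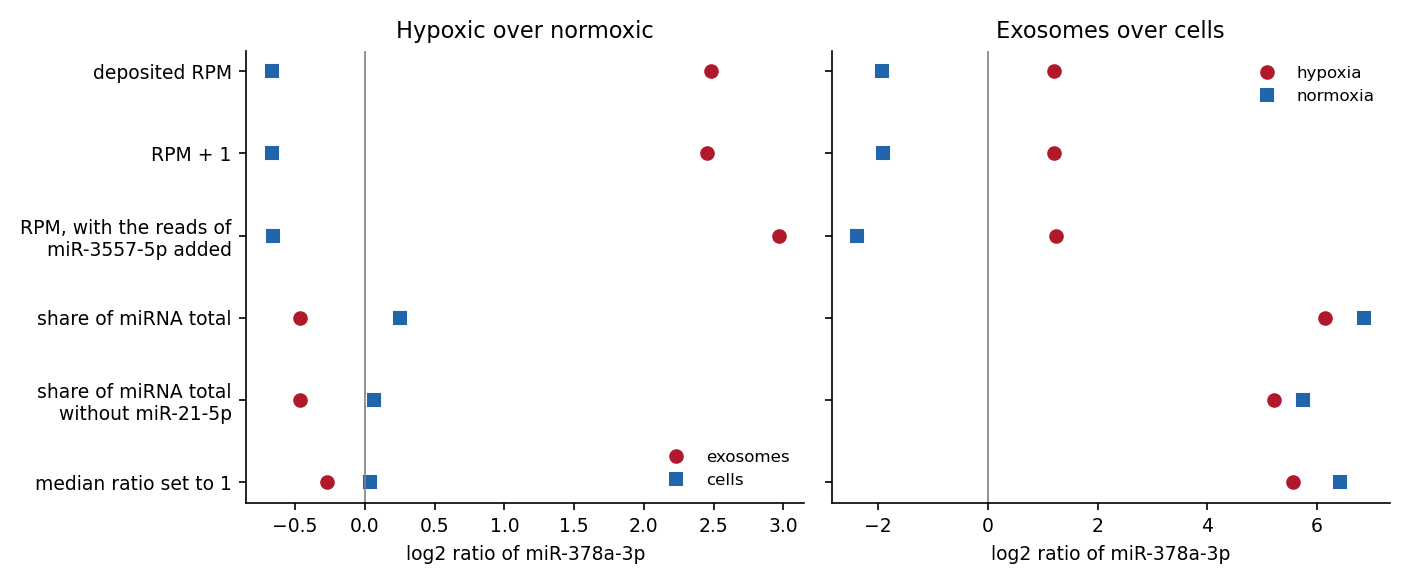
log2 ratio of miR-378a-3p, hypoxic over normoxic (left) and exosomes over cells (right), under 6 ways of scaling, 1 per line. In the left panel both series change sign between the RPM scales and the scales relative to other miRNAs, and in the right panel the normoxic pair does so, at -1.93 on RPM and 6.87 as a share of the miRNA total.

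The antisense partner miR-3557-5p was more abundant than miR-378a-3p, by a near equal factor in 3 of the 4 libraries. It had 6514 reads in hypoxic exosomes and 631 in normoxic exosomes, and 2916 in hypoxic cells and 3605 in normoxic cells. The reads of miR-378a-3p were 0.521 of those of miR-3557-5p in hypoxic exosomes (95% counting interval 0.4999 to 0.543), 0.540 in hypoxic cells (0.507 to 0.574) and 0.543 in normoxic cells (0.514 to 0.574), and these intervals overlap. Normoxic exosomes stood apart, with 0.927 (0.827 to 1.04).

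The partners differed in their ratio in exosomes and hardly in cells. The RPM of miR-3557-5p in hypoxic exosomes was 9.92 times that in normoxic ones (9.14 to 10.8), against 5.57 for miR-378a-3p, and the intervals do not overlap. Exosomes over cells gave 2.40 for miR-3557-5p on RPM and 73.4 by share in hypoxia, and 0.1535 on RPM and 68.35 by share in normoxia, where miR-378a-3p had 0.262 and 117. In cells the hypoxic over normoxic ratios were 0.6335 for miR-3557-5p and 0.629 for miR-378a-3p. When the reads of both were added, an alternative chosen after seeing the values, the ratio in exosomes was 7.83 (7.37 to 8.315), close to that of the miRNA total, and the summed share was 9.10% in hypoxic exosomes and 8.94% in normoxic exosomes. The lower share of miR-378a-3p in hypoxic exosomes was thus not seen in the sum (ratio of shares 1.02, 0.959 to 1.08). The exosomes still exceeded the cells on that scale, where the sum held 0.1255% in hypoxic cells and 0.105% in normoxic cells.

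Such antisense pairs were common in the list. Pairs of rat miRNAs whose mature sequences overlap on opposite strands by at least 15 bases numbered 46, and in 17 of them both partners were listed in normoxic cells. In those 17 the less abundant partner had a median of 0.1705 of the reads of the other, and 3 pairs were more even than miR-378a-3p and miR-3557-5p. Of 15 pairs with both partners listed in hypoxic cells 3 were more even, of 7 in hypoxic exosomes 2, and of 4 in normoxic exosomes none.

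miR-378a-5p was below 10 reads in every library, a level of 0.810 RPM in hypoxic exosomes, 0.843 RPM in normoxic exosomes, 0.753 RPM in hypoxic cells and 0.961 RPM in normoxic cells. No ratio between conditions can be given for it, and it may be present below these levels. With fewer than 10 reads of the 5p arm, the 3p arm had at least 339.5 times as many reads in hypoxic exosomes and at least 58.5 times in normoxic exosomes. In cells the bounds were 157 in hypoxia and 196 in normoxia. At the same position on the other strand, miR-3557-3p, the reverse complement of miR-378a-5p, had 69 reads in hypoxic cells and 71 in normoxic cells and was listed at 0 in both exosome libraries.

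Among hairpins at least as abundant in cells as miR-378a, only a minority had a second arm listed at 0. This set reaches up to miR-21-5p, at 1736715 reads in hypoxic cells and 2914783 in normoxic cells. In a more abundant hairpin the other arm more readily reaches the level at which miRNAs are listed. How usual such an arm is at the abundance of miR-378a itself was therefore not tested. An arm listed at 0 may also be present below that level. Of 68 hairpins with both arms in the list whose more abundant arm had at least as many reads as miR-378a-3p in hypoxic cells, 12 (17.6%) had the other arm at 0, and of 68 in normoxic cells 9 (13.2%), miR-378a among them. The others included the hairpins of miR-26a-5p, let-7g-5p, miR-20a-5p, miR-185-5p and miR-320-3p in both libraries. Where both arms were listed, the median ratio of the arms was 74.0 in hypoxic cells and 98.4 in normoxic cells. The bound for miR-378a was exceeded by 20 of 56 such hairpins in hypoxia and by 17 of 59 in normoxia. In exosomes, where fewer miRNA reads were available, the other arm was at 0 for 4 of 7 such hairpins in hypoxia and for 5 of 6 in normoxia.

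**Figure D5:**
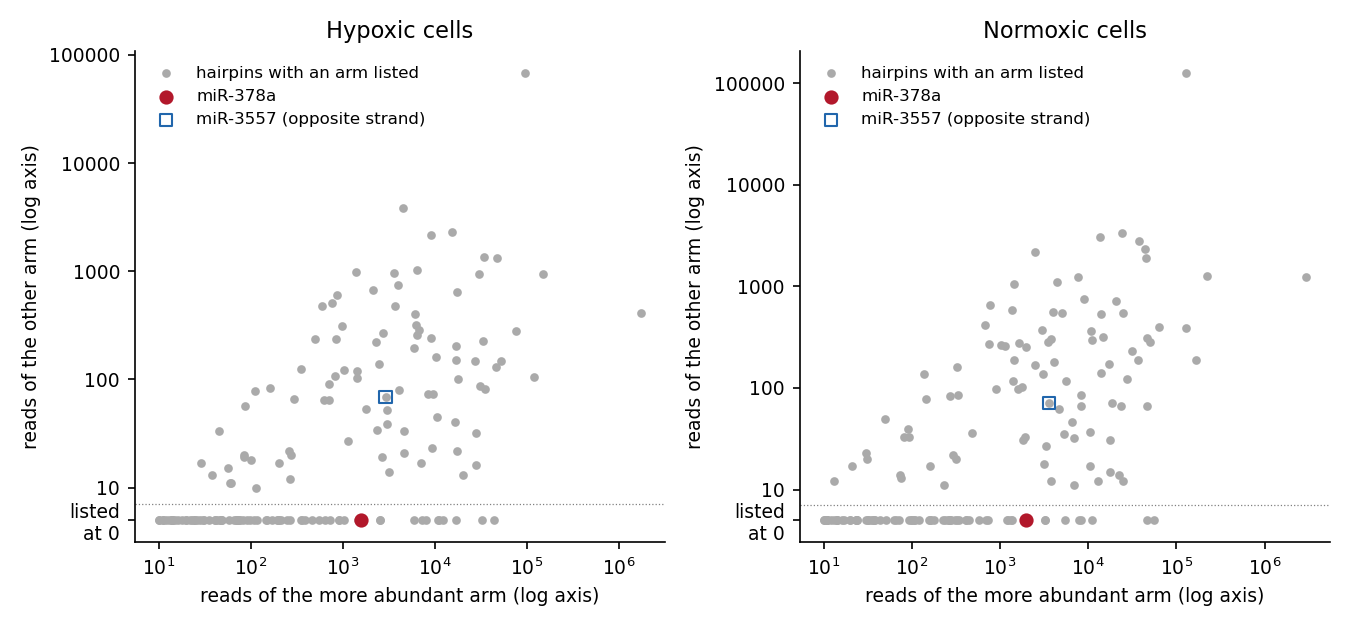
Reads of the more abundant arm (horizontal) against the other arm (vertical) of each hairpin with both arms in the list, on log axes, in hypoxic and normoxic cells, with arms under 10 reads drawn as listed at 0. miR-378a (red) lies at 1574 and 1959 reads with its other arm at 0, while miR-3557 on the opposite strand (open squares) had 69 and 71 reads of its other arm.

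The miRNAs whose profile over the 4 libraries was most like that of miR-378a-3p were sought among the other 70 listed in all of them. Likeness was the root mean square difference of log2 levels after each profile was centred on its own mean, a measure that scaling of the libraries does not change. The closest were miR-423-5p (0.28), miR-3557-5p (0.34) and miR-320-3p (0.36), against a median of 3.11 for the 70. miR-3591 (0.70) and miR-760-3p (0.73) followed at some distance. A profile of 4 points rests mainly on the contrast of exosomes and cells, which these miRNAs share.

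The reads of these miRNAs can be set beside those of miR-378a-3p. miR-423-5p had 4243 reads in hypoxic exosomes and 1221 in normoxic exosomes, and 2169 in hypoxic cells and 3031 in normoxic cells. miR-320-3p, which is made without the nuclear enzyme Drosha in mice, had 13436 and 2252 reads in hypoxic and normoxic exosomes, and 11004 and 7904 reads in hypoxic and normoxic cells. The 3 closest had more reads than miR-378a-3p in each library, within counting error for miR-3557-5p in normoxic exosomes, whereas miR-3591, which lies antisense to miR-122-5p, had 40 to 80 reads.

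A short motif in miR-378a-3p was examined because GGAG has been described, in human T cells, as a motif that binds hnRNPA2B1 and accompanies sorting into exosomes. miR-378a-3p holds GGAG from base 10 (capitals): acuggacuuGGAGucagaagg. miR-378a-5p does not hold it, and neither do miR-3557-5p, miR-423-5p, miR-3591 and miR-760-3p, and miR-320-3p had no sequence in the reference. GGAG was sought on the RNA strand only, and 56 of 693 mature miRNAs in the reference (8.08%) held it. Among miRNAs listed in both hypoxic libraries with a known sequence, 15 of 127 held it, and their share ratio of exosomes to cells ranged from 0.126 to 80.9 with a median of 5.75, beside a median of 1.20 for the rest. In the normoxic pair 5 of 65 held it, with medians of 12.6 and 1.14. miR-378a-3p was itself among the 15 and among the 5, so its own ratio enters both medians. These are descriptions of 1 library each, and the match says nothing of binding.

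Other miRNAs with known roles in metabolism and mitochondria were set beside miR-378a-3p in a list of 20. In hypoxic exosomes 9 were listed, in normoxic exosomes 6, and in each library of cells 15. For all 765 miRNAs it was 144 and 74 in hypoxic and normoxic exosomes, and 331 and 338 in hypoxic and normoxic cells. In cells none of the 15 had a ratio of RPM, hypoxic over normoxic, above 2 and 5 were below 0.5, beside 1.27% and 27.8% of all 316 miRNAs. Their median was 0.565, beside 0.612 for all. The lowest was miR-33-5p, encoded in the sterol regulator gene Srebf2 and an inhibitor of cholesterol export, with 38 reads in hypoxic cells and 160 in normoxic cells (ratio 0.186). miR-107-3p, from the pantothenate kinase gene Pank1, had a ratio of 0.457 and its relative miR-103-3p 0.667. The highest was miR-210-3p, which restrains mitochondrial respiration in low oxygen, at 1.48. By share of the miRNA reads, miR-33-5p (0.352) was below 0.5 and miR-210-3p (2.80) above 2.

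In exosomes 6 of the 20 had a ratio, and 5 of them were above 2 on RPM, as were 84.9% of all 73 miRNAs, with a median of 11.2 beside 6.73 for all. All 5 exceeded the ratio of miR-378a-3p, the highest being miR-143-3p (24.25) and miR-23a-3p (22.2), a regulator of glutamine metabolism. By share, 2 of the 6 were above 2, beside 13.7% of all 73. miR-378a-3p had more reads than each of the 20 in hypoxic exosomes except miR-143-3p (6160 reads), and more than each in normoxic exosomes, where miR-143-3p had 244. Of the 20, only miR-122-5p, the main miRNA of liver, exceeded its share ratio of exosomes to cells, at 80.9 in hypoxia and 333 in normoxia.

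A second list held 21 miRNAs that lie in introns of protein-coding genes, as miR-378a does, with miR-33-5p, miR-103-3p, miR-107-3p, miR-208a-3p, miR-208b-3p and miR-499-5p on the metabolic list too. In hypoxic exosomes 10 were listed, in normoxic exosomes 6, and in each library of cells 17. For all 765 miRNAs it was 144 and 74 in hypoxic and normoxic exosomes, and 331 and 338 in hypoxic and normoxic cells. In cells the median ratio of RPM of the 17 was 0.643, with 0 above 2 and 4 below 0.5, beside 1.27% and 27.8% of all 316 miRNAs. In exosomes the median of 6 was 10.5, beside 6.73 for all, and 4 of the 6 were above 2, beside 84.9% of all 73. Within this list, which does not hold every such miRNA, none reached miR-378a-3p in the share ratio of exosomes to cells. The nearest was miR-151-3p, from the focal adhesion kinase gene Ptk2, with 14.9 in hypoxia, and miR-126a-3p, from the endothelial gene Egfl7, with 6.45 in normoxia, where miR-151-3p had 5.92. miR-26a-5p, at 44333 reads in hypoxic cells and 56284 in normoxic cells, was far below miR-378a-3p in exosomes, with 39 reads in hypoxia and 43 in normoxia. Outside the list, miR-486 exceeded the share ratio of miR-378a-3p, at 489 in hypoxia and 1025 in normoxia. miR-423-5p exceeded it in normoxia, at 157, but not in hypoxia, at 64.3. Whether these lie in introns was not examined, so the list gives no rank of miR-378a-3p among intronic miRNAs.

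The summed reads of miRNAs of blood cells, liver and endothelium, which serum contains, also had a larger share in exosomes than in cells. This held for the sum, of which miR-122-5p made up 187 of 226 reads in hypoxic exosomes and 132 of 155 in normoxic exosomes. The 10 markers held 0.208% of the reads of miRNAs in hypoxic exosomes and 1.14% in normoxic exosomes, and 0.0353% in hypoxic cells and 0.0321% in normoxic cells. In hypoxic exosomes 3 of the 10 were listed and in normoxic exosomes 2, against 5 in each library of cells. Of all 765 miRNAs, 144 were listed in hypoxic exosomes, 74 in normoxic exosomes, 331 in hypoxic cells and 338 in normoxic cells. Fewer listed markers in exosomes than in cells thus went with fewer listed miRNAs of any kind. The endothelial miR-126a-3p had a share ratio of exosomes to cells of 0.631 in hypoxia and 6.45 in normoxia, and miR-126a-5p and miR-142-3p were listed in both libraries of cells and at 0 in both exosome libraries. Among the markers of red blood cells, miR-144-3p was at 0 in every library and miR-451-5p had 19 reads in hypoxic exosomes, none listed in normoxic exosomes or hypoxic cells, and 13 in normoxic cells. miR-122-5p had 187 and 132 reads in hypoxic and normoxic exosomes. miR-486, abundant in muscle and red blood cells, had 223 and 42 reads in hypoxic and normoxic exosomes, and 15 and 16 reads in hypoxic and normoxic cells. miR-378a-3p had 15.02 times the reads of the 10 serum markers together in hypoxic exosomes and 3.77 times in normoxic exosomes, and their part in its level was not tested. It also had 15.2 and 11.25 times the reads of the 8 muscle markers together in hypoxic and normoxic exosomes, and 7.72 and 5.58 times in hypoxic and normoxic cells. The muscle sum in exosomes was that of miR-486 alone in hypoxia, and of miR-486 with 10 reads of miR-1-3p in normoxia.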

How the data were processed

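Small RNA of H9c2 cells and of exosomes from their medium was sequenced on an Illumina platform, and 4 libraries were used, 1 per condition. The methods give n = 4 for the RNA extraction, without saying if these are the 4 libraries or extractions combined in each. The authors deposited RPM for 765 rat mature miRNAs, and the submitters' processing notes name the build Rnor 6.0. For the aligner, the counter, the use of strand and the reads behind the RPM scale, the entry is: not given in the sources used here. All values above 0 (100%) were whole multiples of 1 step per library within 0.1 of a step, read as reads. These gave 108860 miRNA reads in hypoxic exosomes, 13598 in normoxic exosomes, 3578371 in hypoxic cells and 5310302 in normoxic cells.

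Ratios were computed for miRNAs listed above 0 in both libraries, with 95% exact (Clopper-Pearson) intervals. Levels have exact Poisson and shares exact binomial intervals. No count model was fitted, since each condition had 1 library. The code that turns steps into reads and computes the intervals was checked on simulated libraries, which does not test whether a step is 1 read. DE miRNAs were defined in the study by a ratio above 2 or below 0.5.

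The named miRNAs were both arms of miR-378a, its family, sharers of a seed, the neighbours in rank, the 5 most alike profiles and the members of fixed lists. These members and lists were chosen with earlier results of these data known. miR-3557, the antisense pairs and the GGAG motif were taken up after their values were seen. So were the miRNAs above miR-378a-3p by share ratio or with an unlisted second arm. Alternatives were 3 other scalings, a pseudocount of 1, a minimum of 50 reads, and adding the reads of miR-3557-5p. Sequences and positions are from RefSeq on GRCr8, and no coordinate of the deposited files was used. The computations ran in Python 3.11.15 with scipy 1.17.1 and numpy 2.4.6, tables in pandas 2.3.3, and figures in matplotlib 3.10.9.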

Additional observations from a re-analysis of the deposited data

Results flagged for a closer look

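miR-378a-3p had a log2 ratio of RPM, hypoxic over normoxic, of 2.48 in exosomes and of -0.67 in cells. It is listed here because the single library pairs moved in opposite directions. With 1 library a condition, the difference was not tested. Known miRNAs as a part of all reads moved the same way, at 0.881% in hypoxic and 0.115% in normoxic exosomes and at 26.9% in hypoxic and 51.0% in normoxic cells, and its part in the difference was not tested.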

How the results depend on the processing

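All values in this paragraph are log2 ratios of miR-378a-3p unless named as counts. Scaled to the miRNA total, to that total without miR-21-5p, and to a median ratio of 1, in this order, the ratio of hypoxic to normoxic exosomes was -0.46, -0.47 and -0.27 (2.48 on RPM), and that of hypoxic to normoxic cells 0.25, 0.064 and 0.040 (-0.67 on RPM). The difference between these, exosomes minus cells, was -0.72, -0.53 and -0.31 (3.15 on RPM). Exosomes over cells gave 6.87, 5.75 and 6.43 in normoxia (-1.93 on RPM) and 6.15, 5.22 and 5.56 in hypoxia (1.21 on RPM). The sign therefore changed in each of these comparisons except exosomes over cells in hypoxia. The shift of the miRNA total that the scaling removes was 2.94 in exosomes and -0.92 in cells. With the reads of miR-3557-5p added, exosomes gave 2.97, the difference 3.63 and exosomes over cells in normoxia -2.38, and the other 2 ratios stayed within their counting intervals, as did the 4 ratios on the scale of log2(RPM + 1), where the difference was 3.12. The number of miRNAs past 2-fold was 92 in cells and 63 in exosomes on RPM, 49 and 31 by share of the miRNA reads, and 43 and 34 with the median ratio at 1. With at least 50 reads in 1 library it was 75 and 58. Ratios of miR-378a-5p and of the arms have no value to recompute, since miR-378a-5p was listed at 0. No paired analysis was possible because each condition had 1 library. Depth limits the normoxic exosomes most, where 13598 miRNA reads gave 585 reads of miR-378a-3p.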

Other observations

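Read numbers differed between the partners of other antisense pairs in several ways. miR-29a-3p had 18 reads in hypoxic exosomes and was listed at 0 in normoxic exosomes, against 308 and 26 reads of its partner miR-3556a, but in hypoxic and normoxic cells it had 27807 and 22551 reads against 33718 and 24004 of miR-3556a. miR-122-5p had 187 and 132 reads in hypoxic and normoxic exosomes and 76 and 155 in hypoxic and normoxic cells, and its partner miR-3591 had 80 and 45 reads in hypoxic and normoxic exosomes and 40 and 54 in hypoxic and normoxic cells. miR-210-3p, the main miRNA of the response to low oxygen, had 1961 and 242 reads in hypoxic and normoxic exosomes and 52093 and 27572 in hypoxic and normoxic cells, against 18 and 12 and then 24 and 11 reads of its partner miR-3574. These pairs were picked after their values were seen.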
